A study of Homo sapiens with 24 samples.

Results

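Glycolysis turns glucose into pyruvate in the cytosol, and many tumor cells send much of that pyruvate on to lactate. When oxygen is short, the prolyl hydroxylases lose activity and the hypoxia-inducible factors (HIF) accumulate, bind short sites with the core ACGTG or GCGTG and switch on glucose transporters, glycolytic enzymes, angiogenic factors and mitophagy genes. In pancreatic ductal adenocarcinoma, signaling through MEK and ERK, partly by way of MYC, is known to sustain the glucose transporter gene SLC2A1 and the hexokinase gene HK2, and such tumors are also known to be poorly supplied with oxygen. The same transcripts therefore answer to more than one input.

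The 33 genes described here are named members of glycolysis and of the HIF response: 16 glycolytic enzymes, 6 transporters and regulators of glycolysis and 11 further HIF-response genes, out of 60230 genes in the deposited tables. They were taken from a written list and found by Ensembl gene identifier, and all 33 passed the low-count filter that left 18242 genes for testing. The lowest estimated count of any of them in any tumor was 20, for ANKRD37.

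RNA came from 24 xenograft tumors grown in mice from the human cell line AsPC-1 (pancreatic ductal adenocarcinoma), with 4 animals in each of 6 groups. Tumors in 5 groups had received IK-595, which the labels call a molecular glue of MEK and RAF, at 6 mg/kg by mouth every other day for 3 doses, and were taken 2, 4, 8, 24 or 48 h after the last dose. The control tumors had received 3 doses of the vehicle (5% DMSO, 95% PEG400) on the same schedule and were taken at 2 h only, so at 4 h and later the time since the last dose differs too. All tumors derive from 1 cell line, and the line itself was not compared with another. A xenograft also holds mouse stroma, vessels and blood, and whether mouse reads were removed is not given in the sources used here.

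Depth was 10.52 to 20.64 M counts per tumor, with the lowest in 4 h tumor 2. Ductal epithelium markers were detected throughout, with a summed level of 6904 to 16953 CPM. The 10 markers were unequal, from a median of 4.61 CPM for KRT7 (1.77 to 10.5 CPM) to 4466 CPM for KRT8. Their sum averaged 9448 ± 1769 CPM in 8 h tumors and 15074 ± 1489 CPM in 48 h tumors, against 11921 ± 1625 CPM in vehicle tumors (SD, n = 4 each). Some tumors stood apart in other markers. The mean level of the 10 muscle markers was over 5 log2 CPM in 2 h tumor 1, 4 h tumor 4, 8 h tumors 2 and 4 and 24 h tumor 4, and the mean of the 15 fibroblast and pericyte markers was over 7 log2 CPM in 4 h tumor 2. The summed muscle marker level ran from 9.23 to 6938 CPM over the 24 tumors. In bulk RNA, fewer cells of a type and less RNA per cell cannot be told apart. The score of 10 transcripts that follow MAPK signaling (mean log2 CPM, among them DUSP4 and SPRY4) was 6.52 ± 0.04 in vehicle tumors, 4.11 ± 0.20 in 2 h tumors, 2.96 ± 0.42 in 4 h tumors, 2.74 ± 0.52 in 8 h tumors, 5.56 ± 0.23 in 24 h tumors and 6.15 ± 0.18 in 48 h tumors (SD, n = 4 each).

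Promoter sequences are shown for 7 members, chosen after their values were seen: SLC2A1 and HK2, enzymes that fell, and the HIF-response genes CA9 and ANKRD37. RefSeq (GRCh38.p14) gave promoters for 29 of the 33 members, and the windows below are the 250 bases before an annotated start, 5′ to 3′ on the strand of the gene. Capitals mark ACGTG or GCGTG, the 2 forms of the HIF core, read on either strand, so CACGT and CACGC are the same letters on the other strand. CACGTG, the E-box that MYC is known to bind, contains ACGTG on both strands and was counted under both names.

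SLC2A1 (chr1:42958869-42959118, minus strand): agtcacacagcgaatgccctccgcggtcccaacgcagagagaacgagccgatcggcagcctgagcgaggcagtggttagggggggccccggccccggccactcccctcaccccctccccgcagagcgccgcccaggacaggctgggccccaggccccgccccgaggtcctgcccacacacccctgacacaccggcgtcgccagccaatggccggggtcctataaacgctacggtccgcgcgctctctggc

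HK2 (chr2:74834920-74835169, plus strand, second of 2 starts): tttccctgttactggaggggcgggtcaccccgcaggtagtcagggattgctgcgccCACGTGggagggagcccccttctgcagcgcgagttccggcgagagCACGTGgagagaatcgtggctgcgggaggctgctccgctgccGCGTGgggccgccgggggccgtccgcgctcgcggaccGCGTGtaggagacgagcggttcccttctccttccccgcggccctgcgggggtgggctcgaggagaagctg

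LDHA (chr11:18394313-18394562, plus strand, first of 2 starts): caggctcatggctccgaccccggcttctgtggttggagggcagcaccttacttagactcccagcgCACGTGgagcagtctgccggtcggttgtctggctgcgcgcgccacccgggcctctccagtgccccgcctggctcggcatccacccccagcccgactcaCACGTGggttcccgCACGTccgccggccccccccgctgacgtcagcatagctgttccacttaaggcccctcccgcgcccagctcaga

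PGK1 (chrX:78103998-78104247, plus strand): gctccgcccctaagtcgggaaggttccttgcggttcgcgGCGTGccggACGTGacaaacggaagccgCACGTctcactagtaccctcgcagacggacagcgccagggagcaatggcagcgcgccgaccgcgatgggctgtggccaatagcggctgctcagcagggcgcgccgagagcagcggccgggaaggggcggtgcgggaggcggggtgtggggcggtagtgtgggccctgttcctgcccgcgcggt

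ENO1 (chr1:8878687-8878936, minus strand): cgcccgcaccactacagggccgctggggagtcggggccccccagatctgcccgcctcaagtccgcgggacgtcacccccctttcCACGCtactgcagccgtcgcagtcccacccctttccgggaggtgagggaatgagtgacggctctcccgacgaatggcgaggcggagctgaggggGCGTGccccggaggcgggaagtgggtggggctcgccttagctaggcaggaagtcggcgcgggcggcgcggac

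CA9 (chr9:35673678-35673927, plus strand): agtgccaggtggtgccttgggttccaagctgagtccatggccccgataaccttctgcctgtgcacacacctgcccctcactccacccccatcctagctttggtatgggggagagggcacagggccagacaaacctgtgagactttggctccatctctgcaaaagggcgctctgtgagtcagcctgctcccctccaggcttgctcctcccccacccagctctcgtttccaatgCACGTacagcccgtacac

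ANKRD37 (chr4:185396591-185396840, plus strand): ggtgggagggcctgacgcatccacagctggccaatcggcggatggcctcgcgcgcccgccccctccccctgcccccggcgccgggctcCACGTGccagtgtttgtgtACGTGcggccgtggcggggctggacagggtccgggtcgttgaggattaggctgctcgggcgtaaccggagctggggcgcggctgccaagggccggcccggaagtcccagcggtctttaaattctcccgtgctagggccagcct

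The SLC2A1 window held none of these letters, and the LDHA window held 5 matches to ACGTG counted over both strands, among them 2 E-boxes. The HK2 window held 4 matches to ACGTG, 2 to GCGTG and 2 E-boxes. For both genes the window richer in matches is shown: that of the other HK2 start held 2 of ACGTG, 1 of GCGTG and 0 E-boxes, and that of the other LDHA start held 0 of ACGTG, 1 of GCGTG and 0 E-boxes. PGK1 had 2 and 1 of the HIF core forms, ENO1 had 2 of GCGTG, CA9 had 1 of ACGTG and ANKRD37 had 3 of ACGTG with 1 E-box. Counted over all 56 promoters of the 29 members, 60.7% held either HIF core, against 43.2% of all 35116 promoters. By form, 39.3% held ACGTG, against 18.5%, and 33.9% held GCGTG, against 32.2%, so GCGTG was near its share in all promoters. The E-box, which also counts as ACGTG, was in 14.3%, against 6.34%. Several members have more than 1 start with overlapping windows. A match is a description of the letters, and a window without one says nothing about a site elsewhere.

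Most calls among the glycolysis and HIF-response transcripts were falls at 8 and 24 h after IK-595. At 2 h 7 of 33 (21.2%) had changed, where 26.9% of all genes tested had, and VEGFA, the vascular growth factor gene, was among those that rose. At 4 h SLC2A1 and the lactate exporter gene SLC16A3 had fallen. At 8 h 8 of the 16 glycolytic enzymes had fallen, where 23.7% of all genes fell, and at 24 h 9 of 16, where 13.8% did. At 48 h 0 of the 33 members were called lower than in vehicle tumors, which is near the 4.46% of all genes that were. Rose and fell are used where edgeR's quasi-likelihood test gave a Benjamini-Hochberg adjusted p under 0.05 over all genes tested, and values after ± on a log2 fold change are standard errors.

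**Figure D1:**
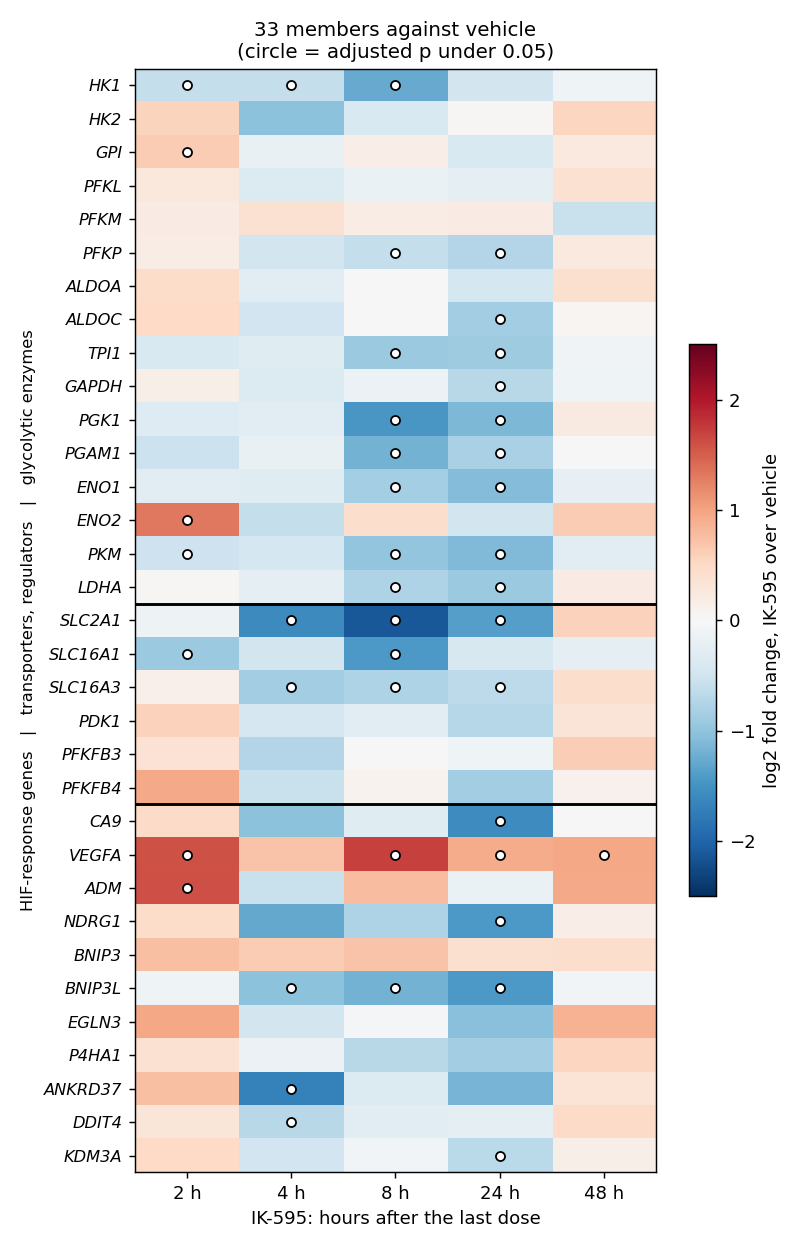
Log2 fold change of each of the 33 members (rows, grouped by role) in IK-595 tumors over vehicle tumors at each time after the last dose (columns), with n = 4 tumors per group and a circle where the adjusted p was under 0.05. Most enzyme rows are bluest at 8 and 24 h, the SLC2A1 row at 4 to 24 h, and the VEGFA row is red throughout.

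At 2 h, 4 of 33 members rose and 3 fell, where 13.4% of all genes tested rose and 13.6% fell, 26.9% in all. At 4 h 0 rose and 6 fell, where 6.74% of all genes rose and 8.39% fell, 15.1% in all, and 4 of the 15 fibroblast and pericyte markers rose (median log2 fold change 2.07). The summed level of those 15 markers ran from 1008 to 33410 CPM in the 4 h tumors and was highest in 4 h tumor 2. At 8 h 1 rose and 12 fell, where 20.6% of all genes rose and 23.7% fell, 44.3% in all, and 2 of the 10 ductal markers rose and 1 fell (median -0.27). At 24 h 1 rose and 15 fell, where 13.7% of all genes rose and 13.8% fell, 27.5% in all. Of the 10 ductal markers, 4 rose and 1 fell at 24 h (median -0.13). At 48 h 1 rose and 0 fell, where 5.52% of all genes rose and 4.46% fell, 9.98% in all, and 4 of the 10 ductal markers rose (median 0.53). The part of these markers in the members' changes was not tested. The count at 8 h was near the share of all genes called and the count at 24 h was above it, which is given as a description without a test. The median log2 fold change of the 33 members was 0.36 at 2 h (all genes tested 0.05), -0.45 at 4 h (all genes 0.03), -0.30 at 8 h (all genes 0.07), -0.72 at 24 h (all genes 0.06) and 0.24 at 48 h (all genes -0.01). All 5 comparisons use the 4 vehicle tumors.

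These calls did not all rest on the same footing. On leaving out each tumor in turn, 13 of 13 calls were kept at 8 h and 9 of 16 at 24 h, but 2 of 7 at 2 h, 3 of 6 at 4 h and 0 of 1 at 48 h. The number called at 2 h was 4 without vehicle tumor 1 and 3 without vehicle tumor 2, 2 h tumor 2 or 2 h tumor 4. At 4 h it was 3 without 4 h tumor 4, and at 24 h it was 10 without vehicle tumor 3 or 24 h tumor 1. Without all 6 tumors high in muscle or fibroblast markers, a check added after seeing the data, 2 members were called at 4 h.

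SLC2A1 encodes GLUT1, the main glucose importer of most tumor cells. Its level was 943 ± 264 CPM in vehicle tumors, 869 ± 226 CPM at 2 h, 313 ± 123 CPM at 4 h, 217 ± 77.1 CPM at 8 h, 366 ± 129 CPM at 24 h and 1395 ± 126 CPM at 48 h (SD, n = 4). In the 8 h tumors it had 243, 103, 272 and 252 CPM, against 682, 904, 1310 and 874 CPM in the vehicle tumors. No 4 h, 8 h or 24 h tumor reached the lowest vehicle tumor, and the highest of them was 24 h tumor 2 with 534 CPM. The log2 fold change against vehicle was -0.12 ± 0.30 at 2 h (adjusted p = 0.811), -1.59 ± 0.31 at 4 h (adjusted p = 9.27e-04), -2.12 ± 0.31 at 8 h (adjusted p = 1.73e-05), -1.37 ± 0.31 at 24 h (adjusted p = 0.00243) and 0.57 ± 0.30 at 48 h (adjusted p = 0.273). The 3 falls were kept on leaving out each tumor. SLC2A1 also fell at 4 h against 2 h (-1.47 ± 0.31, adjusted p = 0.00437) and rose at 48 h against 24 h (1.93 ± 0.31, adjusted p = 0.00136). It lies on chromosome 1 from 42925375 to 42959176 (GRCh38, GENCODE release 29).

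HK2 encodes the inducible hexokinase that traps glucose as glucose 6-phosphate. It was not called against vehicle at any time. In the 4 h tumors it had 53.2, 43.6, 130 and 45.3 CPM, against 86.8, 111, 237 and 123 CPM in the vehicle tumors. All but 4 h tumor 3 lay below every vehicle tumor, and 4 h tumor 3 lay above 3 of the 4. The log2 fold change was 0.56 ± 0.49 at 2 h, -1.03 ± 0.49 at 4 h (adjusted p = 0.167), -0.39 ± 0.49 at 8 h (adjusted p = 0.544), 0.03 ± 0.49 at 24 h (adjusted p = 0.970) and 0.53 ± 0.49 at 48 h (adjusted p = 0.576). Without 4 h tumor 3 the 4 h difference was called (-1.52, adjusted p = 0.045). Spread within the groups was wide, with a pooled SD of 0.70 on the log2 scale, where the median gene had 0.33. Of the 9 comparisons between groups, HK2 was called only at 4 h against 2 h (-1.59 ± 0.50, adjusted p = 0.037), and that call was lost on leaving out 2 h tumor 2, 3 or 4 or 4 h tumor 1, 2 or 4, with log2 fold changes of -1.70 to -1.20.

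HK1 encodes the constitutive hexokinase, and it fell at 2, 4 and 8 h. The difference between HK1 and HK2 was not tested. In the 8 h tumors HK1 had 45.1, 33.1, 33.9 and 33.9 CPM, against 81.6, 88.8, 90.1 and 89.0 CPM in the vehicle tumors. The groups did not overlap, and 3 of the 8 h tumors were nearly equal. HK1 changed by -1.26 ± 0.18 at 8 h (adjusted p = 1.17e-05), by -0.59 ± 0.18 at 2 h (adjusted p = 0.0186) and by -0.59 ± 0.18 at 4 h (adjusted p = 0.026). The 2 h call was lost without 2 h tumor 2 (-0.56, adjusted p = 0.0516), and the 4 h call without any of the 4 vehicle tumors or 4 h tumors 1, 3 or 4. Per length (TPM), HK2 made up 49.5 ± 9.79% of the sum of HK1 and HK2 in vehicle tumors, 67.3 ± 9.11% in 2 h tumors, 41.6 ± 13.6% in 4 h tumors, 62.2 ± 12.9% in 8 h tumors, 57.3 ± 11.3% in 24 h tumors and 60.6 ± 10.3% in 48 h tumors (SD, n = 4).

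**Figure D2:**
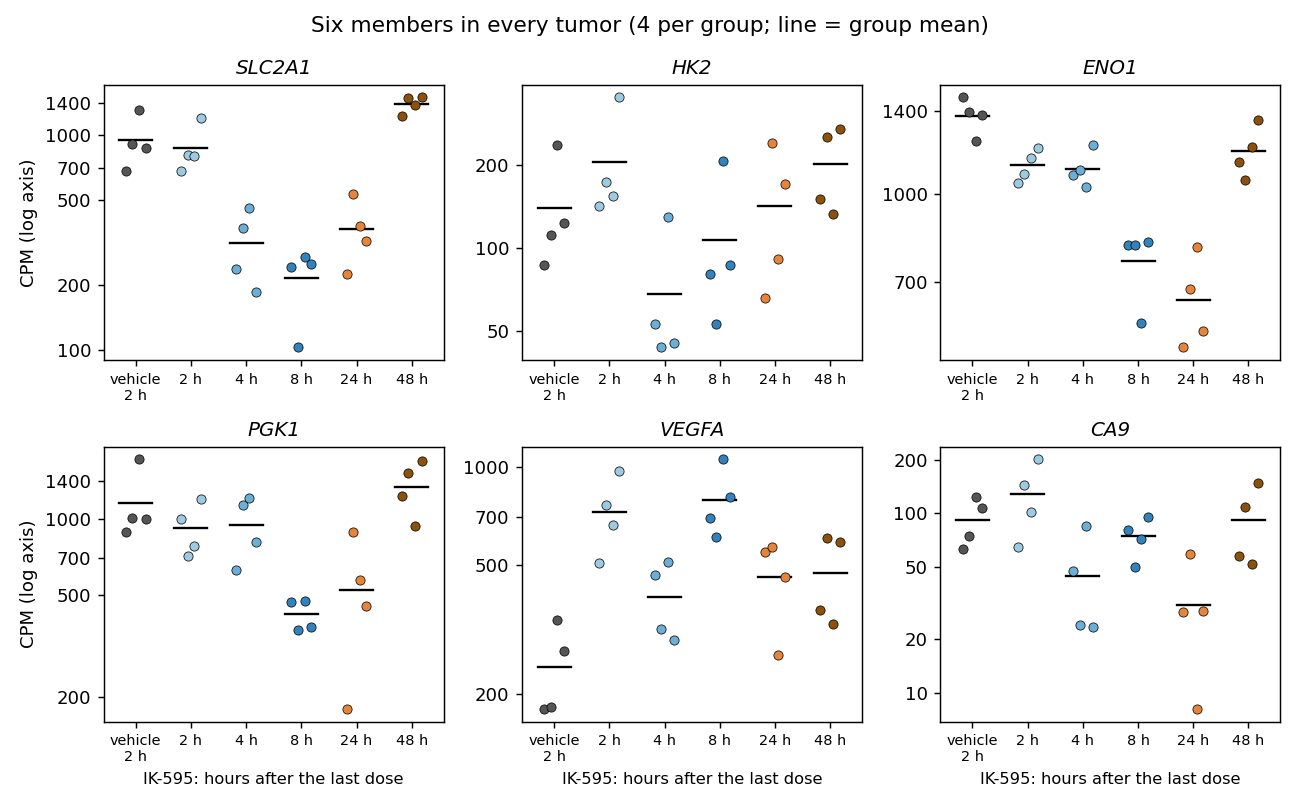
Level of 6 members in each of the 24 tumors (points, CPM on a log axis) by group, with the group mean as a line. SLC2A1 is below all vehicle tumors at 4, 8 and 24 h and the lowest ENO1 levels are at 8 and 24 h, VEGFA is above all vehicle tumors at 2 and 8 h, and HK2 spreads widely within most groups.

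Of the enzymes below hexokinase, those for triose phosphate isomerase (TPI1), phosphoglycerate kinase (PGK1), phosphoglycerate mutase (PGAM1), enolase (ENO1), pyruvate kinase (PKM) and lactate dehydrogenase (LDHA) fell at both 8 and 24 h. Among all 16 enzymes, 8 fell at 8 h (50%, median log2 fold change -0.49), where 23.7% of all genes tested fell, and 9 fell at 24 h (56.2%, median -0.72), where 13.8% of all genes fell. None of the 16 rose at either time, where 20.6% of all genes rose at 8 h and 13.7% at 24 h. PFKP, the platelet-type phosphofructokinase at the committed step, fell by 0.59 ± 0.16 at 8 h and by 0.73 ± 0.17 at 24 h on the log2 scale (adjusted p = 0.00595 and 0.00241). GAPDH, which makes the first NADH of the pathway, was at -0.14 ± 0.13 at 8 h and fell only at 24 h (-0.70 ± 0.13, adjusted p = 5.08e-04), and its 24 h against 8 h difference was itself called (-0.56 ± 0.13, adjusted p = 0.01), except without 8 h tumor 4. Its 62 pseudogenes hold 1.02% of the counts of gene and pseudogenes together.

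ENO1 had 537, 680, 806 and 575 CPM in the 24 h tumors, against 1477, 1391, 1240 and 1375 CPM in the vehicle tumors. All 24 h tumors lay well below all vehicle tumors, and the same held at 8 h, where ENO1 had 593 to 823 CPM. ENO1 changed by -0.85 ± 0.13 at 8 h (adjusted p = 2.97e-05) and -1.08 ± 0.13 at 24 h (adjusted p = 9.06e-06), and had one of the smallest within-group SDs of the members, 0.17. PKM had 685, 1015, 1159 and 1055 CPM in the 24 h tumors, against 2105, 2300, 1958 and 2093 CPM in the vehicle tumors. Again no tumor of one group came near the other. PKM changed by -0.52 ± 0.16 at 2 h, -0.98 ± 0.16 at 8 h (adjusted p = 3.99e-05) and -1.11 ± 0.16 at 24 h (adjusted p = 3.64e-05). Its 2 h call was lost without vehicle tumor 2 (-0.47, adjusted p = 0.0572), 2 h tumor 2 or 2 h tumor 4.

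PGK1, which makes the first ATP of the pathway, had 473, 367, 475 and 375 CPM in the 8 h tumors, against 883, 1004, 1713 and 1000 CPM in the vehicle tumors. The 8 h tumors were close together and below every vehicle tumor, whereas the 24 h tumors ran from 179 CPM in tumor 1 to 889 CPM in tumor 2. PGK1 changed by -1.45 ± 0.34 at 8 h (adjusted p = 0.00149) and -1.13 ± 0.33 at 24 h (adjusted p = 0.0147). The 24 h call was lost without vehicle tumor 3 (-0.88, adjusted p = 0.0648). PGAM1 had 211, 160, 124 and 152 CPM in the 8 h tumors, against 388, 374, 356 and 348 CPM in the vehicle tumors. It changed by -1.18 ± 0.24 at 8 h (adjusted p = 4.67e-04) and -0.82 ± 0.24 at 24 h (adjusted p = 0.0145). The groups at 8 h did not overlap, and at 24 h PGAM1 ran from 78.9 to 308 CPM, still under the lowest vehicle tumor.

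TPI1 changed by -0.92 ± 0.16 at 8 h and -0.89 ± 0.16 at 24 h (adjusted p = 6.60e-05 and 2.83e-04). LDHA, which turns pyruvate to lactate, changed by -0.77 ± 0.19 and -0.92 ± 0.19 (adjusted p = 0.00215 and 0.00114). Measured per length, the 16 enzymes together made up 1.22 ± 0.0922% of all TPM in vehicle tumors, 1.13 ± 0.0967% in 2 h tumors, 1.02 ± 0.107% in 4 h tumors, 0.776 ± 0.0856% in 8 h tumors, 0.690 ± 0.193% in 24 h tumors and 1.20 ± 0.109% in 48 h tumors (SD, n = 4). The 8 and 24 h tumors, at 0.410 to 0.832%, all lay below the lowest vehicle tumor at 1.13%. Mitochondrial mRNA took 7.73 ± 1.16% of counts in vehicle tumors, 13.5 ± 2.58% in 2 h tumors and 9.52 ± 2.86% in 4 h tumors. It took 17.6 ± 2.26% in 8 h tumors, 15.2 ± 7.89% in 24 h tumors and 10.4 ± 0.523% in 48 h tumors (SD, n = 4 each). In 24 h tumor 1 it was 27.0%. Its mean was highest at 8 and 24 h, where the enzyme share was lowest, but both were lower at 4 h than at 2 h. The part of mitochondrial mRNA in these results was not tested.

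Other enzymes with paralogs of the same step gave less settled values. ENO2, the enolase of neurons and of hypoxic cells, had 124, 251, 196 and 376 CPM in the 2 h tumors, against 58.2, 67.6, 145 and 108 CPM in the vehicle tumors. All 2 h tumors but tumor 1 lay above every vehicle tumor. ENO2 rose by 1.32 ± 0.47 (adjusted p = 0.0433) at 2 h and fell by 1.92 ± 0.48 between 2 and 4 h, and the 2 h call was lost on removal of vehicle tumor 1, 2 or 4, or of 2 h tumor 2, 3 or 4, with log2 fold changes of 1.01 to 1.41. As a share of ENO1 plus ENO2 per length, ENO2 made up 5.38 ± 2.59% in vehicle tumors, 14.4 ± 5.23% in 2 h tumors, 4.58 ± 1.98% in 4 h tumors, 12.5 ± 5.81% in 8 h tumors, 8.40 ± 4.38% in 24 h tumors and 9.21 ± 3.06% in 48 h tumors (SD, n = 4). GPI, the isomerase between hexokinase and phosphofructokinase, rose at 2 h (0.64 ± 0.20, adjusted p = 0.0196), a call lost on removal of vehicle tumor 1 or 2, or of 2 h tumor 4. ALDOC, a brain-type aldolase, was called lower at 24 h alone (-0.87 ± 0.31, adjusted p = 0.0426), and that call was lost on leaving out any vehicle tumor or 24 h tumor 1 or 3. ALDOA and PFKL were called against vehicle at no time.

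PFKM, the muscle-type phosphofructokinase, was highest in the tumors richest in muscle markers. It had 221 CPM in 2 h tumor 1, 172 in 4 h tumor 4, 166 in 8 h tumor 2 and 188 in 24 h tumor 4, against 41.1 to 90.3 CPM in the other 20 tumors. Those 4 tumors also had the highest muscle scores of the 24. PFKM was called at no time against vehicle, nor in the test over the 5 IK-595 times (adjusted p = 0.589).

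**Figure D3:**
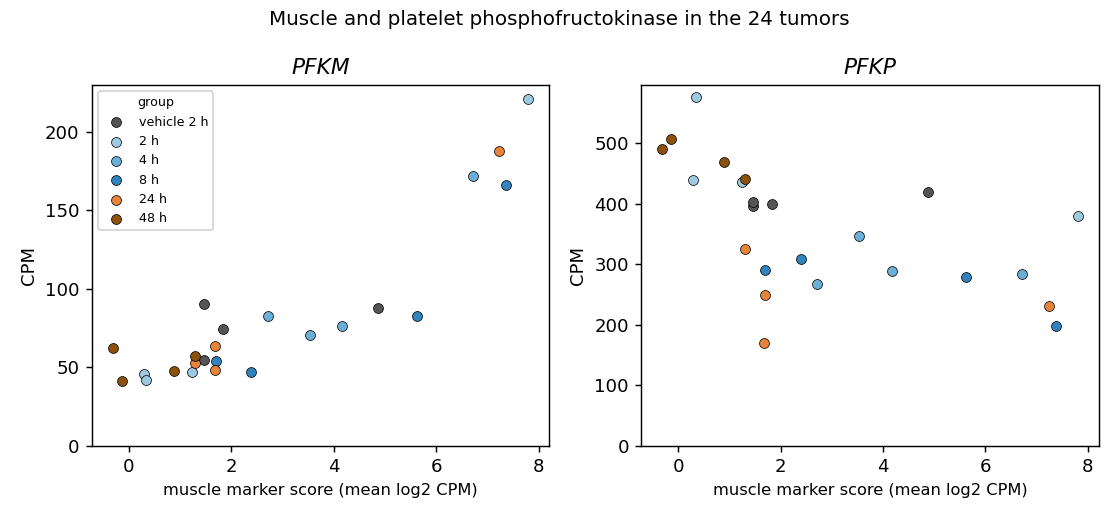
Level of PFKM and of PFKP (CPM) in each tumor against the mean log2 CPM of 10 muscle markers, with colors for the groups. The 4 tumors with the highest muscle scores have 166 to 221 CPM of PFKM, and their PFKP levels lie within the range of the other tumors.

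SLC16A1 and SLC16A3 encode the lactate carriers MCT1 and MCT4, and both fell. SLC16A1 had 69.5, 56.6, 60.1 and 43.6 CPM in the 2 h tumors, against 124, 115, 102 and 96.6 CPM in the vehicle tumors. At 8 h it had 54.0, 43.4, 33.9 and 30.5 CPM. Neither group overlapped the vehicle tumors. SLC16A1 changed by -0.93 ± 0.21 at 2 h (adjusted p = 0.00311) and -1.43 ± 0.22 at 8 h (adjusted p = 1.90e-05), both kept on leaving out each tumor, was not called at 4, 24 or 48 h, and rose at 24 h against 8 h (1.03 ± 0.21, adjusted p = 0.00384). SLC16A3, which is a known HIF target, was at 0.13 ± 0.21 at 2 h and changed by -0.86 ± 0.21 at 4 h, -0.78 ± 0.21 at 8 h and -0.65 ± 0.21 at 24 h (adjusted p = 0.0059, 0.00404 and 0.0219). The 24 h call was lost without vehicle tumor 3 (-0.47, adjusted p = 0.104) or 24 h tumor 1 (-0.54, adjusted p = 0.0732). PDK1, PFKFB3 and PFKFB4, which turn pyruvate away from mitochondria or raise the phosphofructokinase activator, were not called against vehicle at any time.

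The 11 HIF-response genes did not move as a block. VEGFA rose at 2, 8, 24 and 48 h, BNIP3L, a mitophagy receptor gene, fell at 4, 8 and 24 h, and EGLN3, P4HA1 and BNIP3 were not called at any time against vehicle. VEGFA had 696, 609, 1060 and 810 CPM in the 8 h tumors, against 179, 182, 337 and 270 CPM in the vehicle tumors. Every 8 h tumor, and every 2 h tumor at 505 to 973 CPM, lay above every vehicle tumor. VEGFA changed by 1.59 ± 0.28 at 2 h (adjusted p = 4.85e-04), 0.71 ± 0.28 at 4 h (adjusted p = 0.0886), 1.71 ± 0.29 at 8 h (adjusted p = 5.85e-05), 0.92 ± 0.28 at 24 h (adjusted p = 0.0175) and 0.96 ± 0.28 at 48 h (adjusted p = 0.0299). The rises at 2 and 8 h were kept on leaving out each tumor. The 24 h call did not survive the removal of vehicle tumor 1 or 2 or 24 h tumor 1 or 2, at 0.80 to 0.82, and the 48 h call on removal of vehicle tumor 1 or 2, or of 48 h tumor 2 or 4, at 0.82 to 0.85.

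BNIP3L had 131, 108, 159 and 131 CPM in the 8 h tumors, against 170, 245, 531 and 251 CPM in the vehicle tumors. The 8 h tumors all lay below the vehicle tumors, and vehicle tumor 3 was high. BNIP3L changed by -1.02 ± 0.31 at 4 h (adjusted p = 0.0294), -1.18 ± 0.31 at 8 h (adjusted p = 0.00445) and -1.44 ± 0.32 at 24 h (adjusted p = 0.00217). The 4 h call was lost without vehicle tumor 3 (-0.59, adjusted p = 0.176) or 4 h tumor 1, 2 or 4. CA9, the membrane carbonic anhydrase used as a marker of hypoxia, had 28.2, 59.3, 8.11 and 28.5 CPM in the 24 h tumors, against 63.4, 74.6, 123 and 108 CPM in the vehicle tumors. The groups did not overlap, but CA9 varied widely within most groups (pooled SD 0.77, log2). It changed by -1.57 ± 0.52 at 24 h (adjusted p = 0.0291), a call lost on removal of vehicle tumor 3 or 4, or of 24 h tumor 1, 3 or 4 at log2 fold changes of -1.53 to -1.25.

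NDRG1, a stress-response gene induced by hypoxia, had 191, 632, 136 and 279 CPM in the 24 h tumors, against 536, 701, 1451 and 677 CPM in the vehicle tumors. The highest 24 h tumor lay inside the vehicle range. Its change of -1.44 ± 0.53 (adjusted p = 0.0468) was lost on removal of vehicle tumor 2, 3 or 4, or of 24 h tumor 1, 3 or 4, and was -1.04 without vehicle tumor 3. ANKRD37 had 2.88, 2.20, 4.96 and 1.07 CPM in the 4 h tumors, against 4.69, 8.28, 14.3 and 8.84 CPM in the vehicle tumors. Only 4 h tumor 3 reached into the vehicle range. It changed by -1.68 ± 0.48 at 4 h (adjusted p = 0.0189), lost without vehicle tumor 3 (-1.37, adjusted p = 0.0732) or 4 h tumor 4 (-1.38, adjusted p = 0.0598). ADM, the vasodilator adrenomedullin, had 40.0, 104, 72.2 and 173 CPM in the 2 h tumors, against 25.0, 23.9, 38.9 and 39.2 CPM in the vehicle tumors. The groups did not overlap. Its rise of 1.61 ± 0.58 (adjusted p = 0.0442) was lost on leaving out any tumor but 2 h tumor 1, at 1.18 to 1.73.

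Of the other HIF-response genes, DDIT4, an inhibitor of mTORC1, fell at 4 h (-0.70 ± 0.18, adjusted p = 0.00814), which was kept on leaving out each tumor, and KDM3A, a histone demethylase gene, fell at 24 h (-0.67 ± 0.25, adjusted p = 0.047), which was lost without vehicle tumor 3 (-0.42, adjusted p = 0.221) or 4 or 24 h tumor 1, 3 or 4. EGLN3, a prolyl hydroxylase gene that HIF itself induces, had the widest spread within groups of the 33 members (pooled SD 0.95, log2). BNIP3 is uncertain, since 39 pseudogenes hold 39.3% of the counts of gene and pseudogenes together.

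Between consecutive IK-595 times, with no vehicle tumor involved, most called members were lower at 4 h than at 2 h and higher at 48 h than at 24 h. At 4 h against 2 h, 19 of 33 members fell and 0 rose, where 9% of all genes tested fell and 6.89% rose, 15.9% in all, and ADM (-2.18 ± 0.59), ANKRD37 (-2.45 ± 0.49) and ENO2 (-1.92 ± 0.48) changed most. Of these 19 calls, 5 were kept on leaving out each tumor, the ANKRD37 call among them, while those of ADM (without 2 h tumor 4 or 4 h tumor 2 or 4) and ENO2 (without 2 h tumor 4) were not. The count was 12 without 2 h tumor 2 or 3, 5 without 2 h tumor 4, 9 without 4 h tumor 2 and 7 without 4 h tumor 4, and it was 3 without the 6 tumors high in muscle or fibroblast markers. At 8 h against 4 h, 8 fell and 2 rose, where 15.5% of all genes fell and 11.6% rose, 27.1% in all. Those that fell were PKM, ENO1, PGK1, TPI1, LDHA, PGAM1, HK1 and SLC16A1, and those that rose were VEGFA and ANKRD37 (1.34 ± 0.48). The VEGFA call was lost without 8 h tumor 3, and the ANKRD37 call without 4 h tumor 1, 2 or 4 or 8 h tumor 1, 3 or 4. The count was 6 without 8 h tumor 3 and 0 without the 6 tumors, of which 4 are from these 2 groups.

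At 24 h against 8 h, 2 rose (SLC16A1 and HK1) and 1 fell (GAPDH), where 5.3% of all genes rose and 1.58% fell, 6.89% in all, and without 24 h tumor 1 the count was 5. At 48 h against 24 h, 14 members rose and 0 fell, where 2.47% of all genes rose and 1.6% fell, 4.07% in all. Ductal markers summed to 15074 ± 1489 CPM in 48 h tumors, against 11667 ± 1490 CPM in 24 h tumors, and none of the 10 was called (median 0.39), while the median of the 10 muscle markers was -6.00 with 1 called lower, and their part in the rise was not tested. The 14 comprised 9 enzymes, SLC2A1, SLC16A3 and 3 HIF-response genes, BNIP3L, P4HA1 and DDIT4, with log2 fold changes from 0.59 for GAPDH to 1.93 for SLC2A1. Of the 14 calls, 8 were kept on leaving out each tumor, and the count was 9 without 24 h tumor 1 or 48 h tumor 4. The test for any difference among the 5 IK-595 times called 28 of 33 members, where 37.4% of all genes were called, and HK2 (adjusted p = 0.0635), PFKFB3, EGLN3, PFKM and BNIP3 were not called.

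To see which members vary with other HIF targets, a score was made of 30 HIF-response genes that are not among the 33 (mean log2 CPM, with ANGPTL4, EGLN1, ERO1A, MXI1 and P4HA2 among them). The score was 4.65 ± 0.26 in vehicle tumors, 4.81 ± 0.17 in 2 h tumors, 4.51 ± 0.20 in 4 h tumors, 4.37 ± 0.12 in 8 h tumors, 4.27 ± 0.19 in 24 h tumors and 4.81 ± 0.17 in 48 h tumors (SD, n = 4). It was highest in vehicle tumor 3, at 5.01, and lowest in 24 h tumor 1, at 4.08. Inside a group the drug and the time are constant, so the slope of a gene on this score, after removal of the group means, uses only differences between tumors of the same group.

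On this slope 5 of 33 members were called, all positive, where 1.21% of all genes were called in either direction and 0.433% were positive. P4HA1, a collagen prolyl hydroxylase gene, rose by 2.49 ± 0.38 log2 units per unit of score (adjusted p = 0.00606), PFKFB3 by 2.28 ± 0.42 (adjusted p = 0.0149), BNIP3L by 1.96 ± 0.34 (adjusted p = 0.0116), PGK1 by 1.80 ± 0.43 (adjusted p = 0.0388) and SLC2A1 by 1.66 ± 0.40 (adjusted p = 0.0433). HK2 had a slope of 2.48 ± 0.69 (adjusted p = 0.0774). Whether a slope was called changed with single tumors, while the slopes themselves moved less. Without vehicle tumor 3 they were 2.55 for P4HA1, 2.53 for PFKFB3, 1.69 for BNIP3L, 1.83 for PGK1 and 1.75 for SLC2A1. Without vehicle tumor 3 the count was 0, without vehicle tumor 1 it was 1, and without 4 h tumor 2 it was 11. It was 3 without vehicle tumor 4, 2 h tumor 4, 4 h tumor 1 or 4, 8 h tumor 2, 24 h tumor 2 or 4, or 48 h tumor 2 or 3, 8 without 2 h tumor 1 or 3 or 8 h tumor 1, and 9 without 8 h tumor 3. The SLC2A1 call was lost on leaving out any of 16 tumors, with slopes of 1.46 to 1.76.

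The slopes of the other 14 enzymes, none of them called, ran from -0.78 ± 1.03 for PFKM to 1.85 ± 0.73 for ENO2. ALDOC was at 1.53 ± 0.45 (adjusted p = 0.0895), GPI at 1.0 ± 0.28 (adjusted p = 0.0757) and ALDOA at 0.74 ± 0.29 (adjusted p = 0.203). Some that fell at 24 h had slopes nearer 0. ENO1 was at -0.18 ± 0.23, PKM at -0.03 ± 0.28, GAPDH at 0.23 ± 0.23 and LDHA at 0.40 ± 0.32. The median slope was 0.46 over the 16 enzymes, 1.69 over the 6 transporters and regulators and 2.04 over the 11 HIF-response genes, where the median of all genes tested was 0.07. The difference between these groups of genes was not tested.

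**Figure D4:**
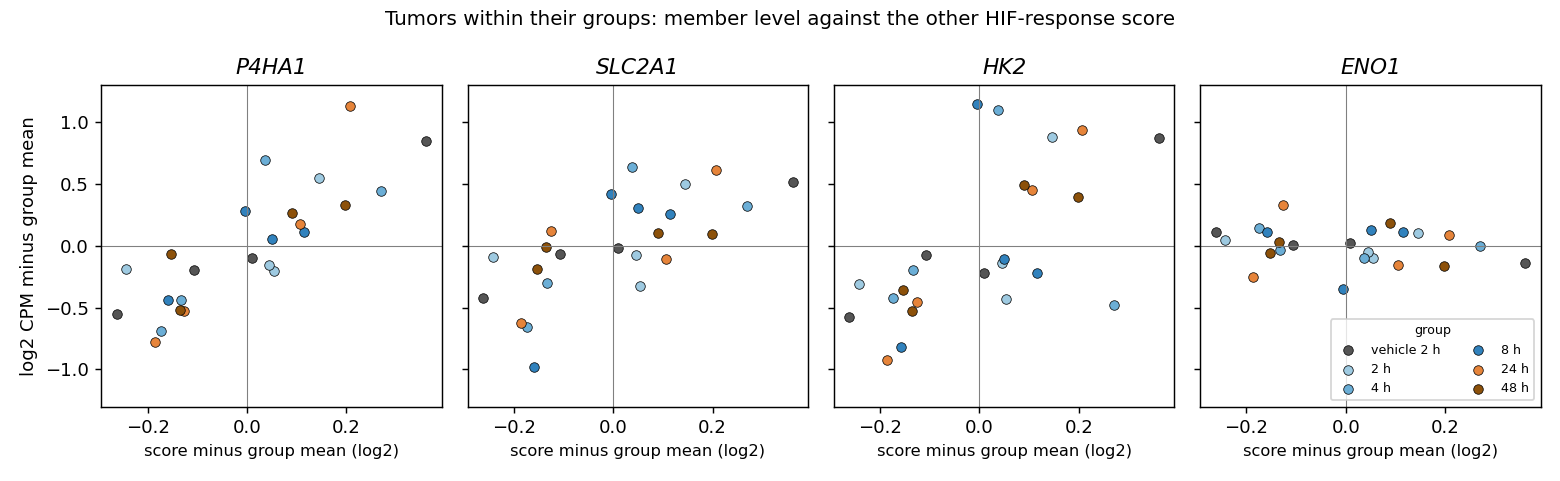
Level of 4 members (log2 CPM minus the mean of the tumor's own group) against the score of 30 other HIF-response genes (also minus its group mean) in the 24 tumors, colored by group. P4HA1 and SLC2A1 rise from left to right, HK2 does so with wide scatter, and ENO1 stays near 0.

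With the same score as a covariate, here without removal of its group means, 8 members were called at 24 h, against 16 without it. The difference between the fits was not tested. The score itself differed between the groups, at 4.27 ± 0.19 in 24 h tumors and 4.65 ± 0.26 in vehicle tumors. How far a fold change shifts follows from that difference and the gene's slope above, so these values are not evidence separate from the slopes. ENO1 (-1.14, adjusted p = 5.51e-05) and PKM (-1.12, adjusted p = 2.89e-04) had almost the same fold change with the score as without it, and LDHA, TPI1, GAPDH and PFKP were still called at -0.77 to -0.56. VEGFA was still called, at 1.35. SLC2A1 was at -0.73 (adjusted p = 0.0609), CA9 at -0.87, BNIP3L at -0.64, NDRG1 at -0.54, PGK1 at -0.47, ALDOC at -0.34, SLC16A3 at -0.29 and KDM3A at -0.16, none of them called. PGAM1 was not called either (adjusted p = 0.0714), with a fold change of -0.73 with the score and -0.82 without it. At 8 h the count was 14 with the score and 13 without it. There SLC2A1 was at -1.64 (adjusted p = 3.59e-05) and PGK1 at -0.89 (adjusted p = 0.0129), and BNIP3L was no longer called (-0.50, adjusted p = 0.0755). At 4 h SLC2A1 was at -1.36 (adjusted p = 3.22e-04). HK2 was at -0.55 at 4 h, 0.41 at 8 h and 0.94 at 24 h with the score, and was called at none of these. Of the 30 genes in the score, 2 rose and 7 fell at 24 h (30% called, near the 27.5% of all genes).

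**Figure D5:**
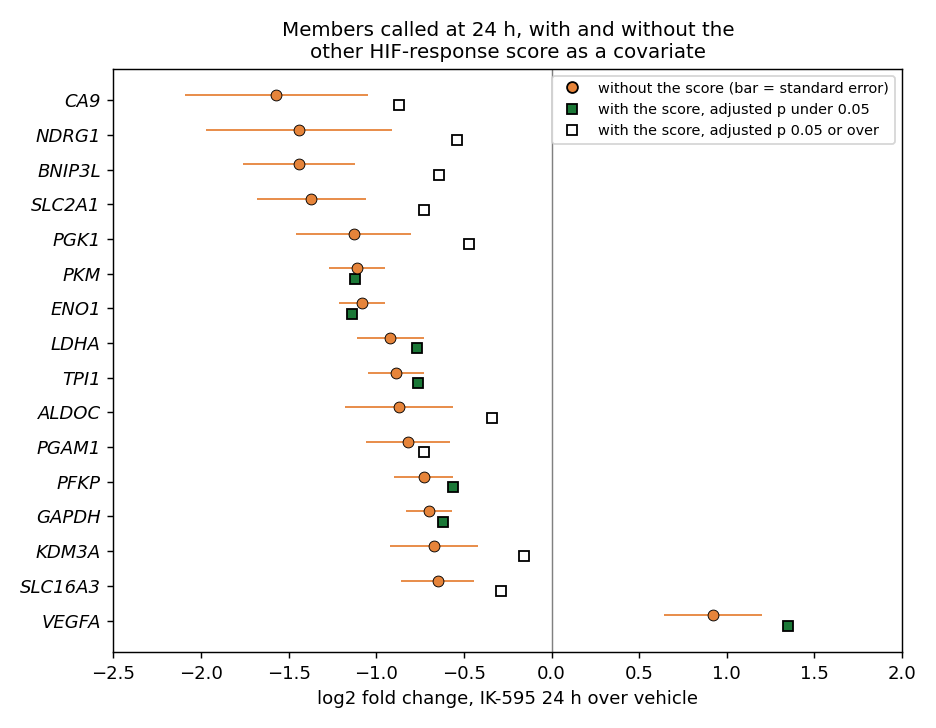
Log2 fold change of the 16 members called at 24 h (IK-595 over vehicle, n = 4 each) without the score (circles, bar = standard error) and with the score of 30 other HIF-response genes as a covariate (squares, filled where the adjusted p was under 0.05). ENO1 and PKM stay near -1.1, while SLC2A1, PGK1, NDRG1, BNIP3L and CA9 move toward 0. These shifts follow from each gene's slope on the score and are not separate evidence.

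Around the 33 members, other genes of the same pathways were counted from lists of pathway genes. Of 30 tested other HIF-response genes, 4 rose and 2 fell at 2 h, 1 and 5 at 4 h, 1 and 6 at 8 h, 2 and 7 at 24 h and 1 and 0 at 48 h. The share called was 20% at 2 h (26.9% of all genes), 20% at 4 h (15.1% of all genes), 23.3% at 8 h (44.3% of all genes), 30% at 24 h (27.5% of all genes) and 3.33% at 48 h (9.98% of all genes), so it was below or near that of all genes except for a somewhat higher share at 4 h, and no test was made. AKAP12, a scaffold of protein kinase A, changed by -3.07 ± 0.39 at 8 h and -2.73 ± 0.39 at 24 h (adjusted p = 4.12e-06 and 4.52e-05). Of 11 tested HIF pathway factors, the prolyl hydroxylase gene EGLN2 rose at all 5 times, most at 8 h (0.64 ± 0.10, adjusted p = 3.83e-05), and SIAH2, a ubiquitin ligase gene that acts on prolyl hydroxylases, fell at 4, 8 and 24 h (-1.13 ± 0.20 at 8 h, adjusted p = 1.27e-04). HIF1A itself was called at no time, and EPAS1, which encodes HIF-2 alpha, fell at 8 h only (-0.71 ± 0.21, adjusted p = 0.00831).

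Of 24 tested other glycolysis and glucose-use genes, 3 rose and 6 fell at 8 h (37.5% called, against 44.3% of all genes) and 2 rose and 2 fell at 24 h (16.7%, against 27.5% of all genes). PKLR, the pyruvate kinase of liver, and SLC2A8, an intracellular glucose transporter gene, were among those that rose at 8 h (2.30 ± 0.46 and 0.96 ± 0.18, adjusted p = 3.59e-04 and 1.93e-04). Of 14 genes for pyruvate entry to mitochondria, 1 rose and 7 fell at 8 h (57.1% called, against 44.3% of all genes). The riser was PDK2, a kinase that switches off pyruvate dehydrogenase (1.63 ± 0.25, adjusted p = 2.12e-05), and DLAT, a subunit of that complex (-1.46 ± 0.22, adjusted p = 2.10e-05), and PDP1, its phosphatase (-1.07 ± 0.14, adjusted p = 2.21e-06), fell. Of 14 pentose phosphate and glycogen enzymes, 0 rose and 4 fell at 8 h (28.6% called, against 44.3% of all genes), with GBE1, the glycogen branching enzyme, at -1.07 ± 0.21 and RPE, of the pentose phosphate pathway, at -0.83 ± 0.15 (adjusted p = 2.48e-04 and 1.78e-04).

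MYC and MLXIPL, transcription factors known to act on glycolytic genes, moved in opposite directions. MYC had 8.23, 6.86, 3.55 and 6.05 CPM in the 8 h tumors, against 78.3, 83.2, 63.9 and 69.4 CPM in the vehicle tumors. No tumor of one group came near the other. MYC changed by -3.29 ± 0.27 at 2 h (adjusted p = 1.33e-07), -3.30 ± 0.27 at 4 h (adjusted p = 1.66e-08), -3.58 ± 0.28 at 8 h (adjusted p = 3.95e-09) and -1.13 ± 0.25 at 24 h (adjusted p = 0.00215), and was at -0.68 ± 0.25 at 48 h (adjusted p = 0.0856). MLXIPL, which encodes the carbohydrate-response factor ChREBP, had 124, 94.9, 268 and 95.1 CPM in the 8 h tumors, against 6.93, 8.04, 7.12 and 11.6 CPM in the vehicle tumors. Its level was above every vehicle tumor in all 20 IK-595 tumors. MLXIPL rose at all 5 times, by 4.11 ± 0.47 at 8 h and 3.45 ± 0.46 at 24 h on the log2 scale, with an adjusted p of at most 0.00166. These are levels of mRNA, and binding was not measured.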

How the data were processed

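Tumor mRNA was enriched with oligo(dT) beads and sequenced as paired reads, per the labels' protocols, to a depth of 10.52 to 20.64 M counts per tumor. The authors' deposited estimated counts and TPM per gene were made with Salmon 0.14.1 after bcl2fastq 2.17 and FastQC 0.12.1, with the build GRCh38.p13, per the submitters' processing notes. The sources used here do not give strand use, annotation release or whether mouse reads were taken out. Groups and replicate numbers were read from the sample titles.

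Estimated counts were rounded to whole numbers (59.6% of non-zero values were whole within 0.0015). Genes were kept by filterByExpr, scaled by TMM and tested with edgeR 4.0.16 (quasi-likelihood, robust, 1 fit to the 24 tumors) in R 4.3.3, with Benjamini-Hochberg adjustment over all 18242 genes within each comparison, and every adjusted p in the text is from that test. CPM were made with TMM library sizes, and log2 CPM for the scores used a prior count of 2. Coordinates came from GENCODE release 29 (GRCh38) and promoters from RefSeq (GRCh38.p14). Symbols came from a separate list of gene names, or from GENCODE release 29 where that list gave none, and listed genes were matched by either name. Per-tumor values are given for members past an adjusted p of 0.05 with a log2 fold change of at least 1 in size, and for SLC2A1 and HK2. Non-members named are those with the smallest adjusted p in each list and those a result turns on. One gene that this rule names is not reported here. The members and lists were chosen with earlier results of these data known. Replicates are separate animals. The p-values for comparisons of groups test differences of group means against the spread between animals within groups, estimated over the 24 tumors.

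Alternatives were DESeq2 1.42.0, scaling by RLE or by upper quartile, no filter or a minimum of 1 CPM in 4 tumors, limma 3.58.1 on log2(TPM + 1) and log2(TPM + 0.1), a replicate block, the HIF-response score as a covariate, only the 2 groups compared, and leaving out each tumor. A muscle marker covariate and removal of the 6 tumors high in muscle or fibroblast markers were added after seeing the data. The fits were also run on simulated counts with planted changes, which held no differences in cell content between tumors. The outcome is not used for any result above.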

Additional observations from a re-analysis of the deposited data

Results flagged for a closer look

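In 18 of 198 sets of 4 tumors (33 members in 6 groups), 1 tumor stood far from the other 3 by Dixon's test at its 95% critical value, where chance gives about 1 set in 20. The flags fell in 11 members, and 5 of them were in 2 h tumor 4. That tumor had the highest 2 h level of HK2 (351 CPM), ALDOA (2296 CPM), PDK1 (118 CPM), PFKFB3 (98.3 CPM) and P4HA1 (278 CPM), against at most 173, 1927, 76.9, 52.2 and 171 CPM in the other 2 h tumors.

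PFKM stood out in 2 h tumor 1 (221 CPM), 4 h tumor 4 (172 CPM) and 24 h tumor 4 (188 CPM), each high in muscle markers. HK1 was low in vehicle tumor 1 (81.6 CPM), high in 8 h tumor 1 (45.1 CPM) and low in 48 h tumor 2 (70.2 CPM). HK2 was high in 4 h tumor 3 (130 CPM), PGK1 was high in vehicle tumor 3 (1713 CPM), ENO1 was low in 8 h tumor 3 (593 CPM) and SLC2A1 was low in 8 h tumor 2 (103 CPM). BNIP3, whose reads the counting may split with its pseudogenes, was high in 2 h tumor 1 (11 CPM), 4 h tumor 2 (15.1 CPM) and 24 h tumor 3 (8.87 CPM). Whether markers of other cells or RNA quality account for these values was not tested.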

How the results depend on the processing

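The number of members called kept within 1.5 times its value under RLE and upper-quartile scaling and with at least 1 CPM in 4 tumors, in every comparison. It moved further in the following. At 2 h (7 called) it was 3 with limma on log2(TPM + 1) or log2(TPM + 0.1) and 12 with only the 2 groups compared. At 4 h (6) it was 10 with DESeq2, 3 with either limma fit and 2 without the 6 tumors high in muscle or fibroblast markers. At 24 h (16) it was 8 with the HIF-response score. At 48 h (1) it was 0 with no low-count filter, either limma fit, the HIF-response score or the muscle score, and 2 with only the 2 groups or without the 6 tumors. At 4 h against 2 h (19) it was 9 with no filter, 8 and 7 with limma at a pseudocount of 1 and 0.1, 4 with the HIF-response score, 12 with the muscle score and 3 without the 6 tumors. At 8 h against 4 h (10) it was 0 without the 6 tumors. At 24 h against 8 h (3) it was 6 with DESeq2, 1 with either limma fit and 0 with only the 2 groups or without the 6 tumors. At 48 h against 24 h (14) it was 23 with DESeq2, 7 and 6 with the limma fits, 1 with the HIF-response score and 2 with only the 2 groups. Over the 5 times (28) it was 15 without the 6 tumors, and for the slope (5) it was 12 with DESeq2 and 3 with no filter. The cause was not tested.

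Leaving out each tumor gave 3 to 9 called members at 2 h, 3 to 7 members at 4 h, 13 to 14 members at 8 h, 10 to 21 members at 24 h, 0 to 1 members at 48 h, 5 to 21 members at 4 h against 2 h, 6 to 12 at 8 h against 4 h, 2 to 5 at 24 h against 8 h, 9 to 20 at 48 h against 24 h, 26 to 31 over the 5 times and 0 to 11 for the slope.

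Tumors that share a replicate number across groups were not alike on average. Over 60 such pairs, the correlation of deviations from the group means was -0.013 on average and over 0.1 in 20. It ran from -0.461 to 0.503, and a mean near 0 cannot show that the numbers carry no pairing. With the replicate block the count was 6 members at 2 h, 6 members at 4 h, 13 members at 8 h, 15 members at 24 h, 1 member at 48 h and 3 members for the slope.

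HK2, not called at 8 or 24 h, changed sign. At 8 h (-0.39) it was 0.41 with the HIF-response score and 0.03 without the 6 tumors. At 24 h (0.03) it was -0.05 with no filter, -0.11 and -0.13 with the limma fits, -0.06 without the 6 tumors, and between -0.35 and 0.41 on leaving out each tumor.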

Other observations

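Among HIF-response genes outside the 33, HILPDA, which encodes a lipid droplet protein, had log2 fold changes against vehicle of -1.24 ± 0.33 at 4 h (adjusted p = 0.0108), -0.73 ± 0.32 at 8 h (adjusted p = 0.0681) and -1.29 ± 0.33 at 24 h (adjusted p = 0.00555), and fell at 4 and 24 h by edgeR's quasi-likelihood test. SLC2A3, the gene of the glucose transporter GLUT3, was scarce, with 0.103, 1.05, 0.324 and 0.429 CPM in the 4 h tumors, against 1.71, 2.71, 7.76 and 4.20 CPM in the vehicle tumors. The groups did not overlap, and SLC2A3 fell at 4 h (-3.19 ± 1.03, adjusted p = 0.0406). Both genes were singled out after their values were seen.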
